A study of Homo sapiens with 14 samples.

Results

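The regions described here are HSF2 peaks of mitotic K562 cells that were called with and without heat and had no peak in the IgG control. The members were chosen by presence in the authors' lists: they are peaks of the heat-treated mitotic HSF2 list that overlap, by at least 1 bp, a peak of the non-treated mitotic HSF2 list and no peak of either mitotic IgG list, with no minimum of fold or p. Of the 8270 heat-treated peaks, 1815 (21.9%) overlapped a non-treated HSF2 peak and 3013 (36.4%) a mitotic IgG peak. The regions number 431 (5.21% of the heat-treated list). A further 1384 peaks overlapped a non-treated HSF2 peak and also an IgG peak, 1629 an IgG peak alone, and 4826 neither.

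The assay was ChIP-seq, in which DNA crosslinked to a protein is pulled down with an antibody and sequenced. K562 is a human erythroleukemia cell line. Cells were freely cycling or arrested in mitosis (the agent of the arrest is not given in the sources used here), and were kept at 37 °C or heated at 42 °C for 30 min. Each of these 4 conditions has 1 HSF1, 1 HSF2 and 1 IgG library, each from 10 pooled immunoprecipitations, and the mitotic HSF2 lists were both called against 1 input library (DNA without pull-down), labelled as heat-treated. With 1 library per group no difference between conditions can be tested. The 95% intervals given below (Wilson for shares, exact Poisson for tags) cover counting error only.

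HSF1 and HSF2 are transcription factors that bind heat shock elements, repeats of a short DNA unit in the promoters of chaperone genes. HSF1 is the main activator of those genes under heat, and HSF2 can bind the same elements, together with HSF1 or without it. In mitosis chromosomes are condensed and most sequence-specific factors leave them, while HSF2 is known for having been described at the promoter of a heat shock protein gene in mitotic cells. IgG is a non-specific antibody, and its peaks mark regions that are pulled down whatever the antibody. Positions are hg19. No sequence or gene annotation of that build was used here, so regions are named by position alone.

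The mitotic HSF2 libraries held 28299989 kept tags with heat and 14782391 without. The rule depends on IgG libraries of unlike depth, 17981369 kept tags with heat (41184 peaks) and 2066373 without (2373 peaks). The lowest peak of the non-treated IgG list has 2.90 CPM (tags per 1000000 kept tags), and 420 of the 431 regions had less HSF2 than that in non-treated cells. The list holds no IgG peak as low as those regions. In the heat-treated IgG list the lowest peak has 0.723 CPM, and 272 regions were at or above it in heat-treated HSF2. An IgG peak lay within 500 bp of 83 regions, a count not computed over the whole list.

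The shared regions carried few HSF2 tags in either library. Heat-treated peaks held a median of 23 tags (16 to 299), which is 0.813 CPM (0.565 to 10.6). Their non-treated partners held a median of 13 tags (12 to 101), which is 0.879 CPM (0.812 to 6.83). These values lie at the lower edge of the lists: 155 partners had exactly 12 tags, the fewest that any peak of the non-treated list has, and 16 tags is the fewest in the heat-treated list. By CPM the edges differ, at 0.565 with heat and 0.812 without, and 209 of the regions had less heat-treated CPM than the lowest peak of the non-treated list. The whole lists had medians of 21 tags (0.742 CPM) with heat and 13 tags (0.879 CPM) without. The lower quartile of the whole non-treated list was also 12 tags. Few tags are thus not a trait of these regions. The shares at these edges over the whole lists were not computed.

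The CPM of the 2 libraries was alike at most regions. It was within 1.5 times at 320 of 431 (74.2%), and also at most of all overlapping HSF2 pairs, though at a lower share of them. It was at least 1.5 times higher with heat at 46 regions (10.7%), where 22.5% of all 1815 overlapping HSF2 pairs reached that ratio. It was at least 1.5 times higher without heat at 65 regions (15.1%, against 17.0% of all pairs). Both lists chose the regions, so these counts describe them and support nothing more. The median ratio of heat-treated to non-treated CPM was 0.871, with a range of 0.254 to 3.90. Its interval over regions, taken from the ranked ratios, was 0.827 to 0.905. That interval treats regions as independent and does not cover the spread between libraries. With CPM by total tags the median was 0.986, outside it. Among the 222 regions at or above the lowest non-treated CPM, an alternative added after the data were seen, the median ratio was 1.13; that alternative selects on the heat-treated CPM, so a higher ratio follows from it by construction. The part of the lists' unlike edges in the ratio was not tested. Counting intervals of the 2 libraries did not overlap at 18 regions, 8 higher with heat (1.86%, against 14.0% of all pairs) and 10 lower (2.32%, against 8.26%). Such intervals are wider, relative to the count, where tags are few. The regions had a median of 0.813 CPM with heat and the 1384 other pairs 1.91, so the lower shares do not show greater stability.

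**Figure D1:**
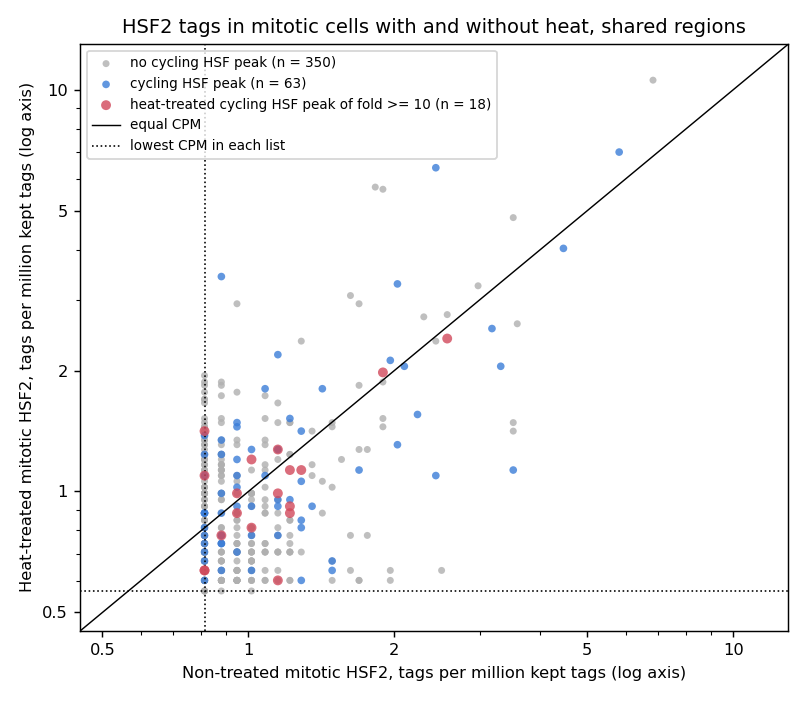
HSF2 CPM in non-treated (horizontal) and heat-treated (vertical) mitotic cells for the 431 shared regions, on log axes, with 1 point per region coloured by its peaks in cycling cells. Most points crowd the dotted lines, the lowest CPM of each list (0.812 and 0.565), and the 18 regions with a strong peak in heated cycling cells reach 2.40 with heat.

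A shared region was often not a shared summit, so overlap alone does not show that the same point was bound. The summits of the heat-treated and non-treated peaks lay a median of 245 bp apart (0 to 3327), against 278 bp over all overlapping pairs. They were within 100 bp of each other at 108 regions (25.1%), near the 25.8% of all overlapping pairs. They were over 500 bp apart at 82, a count not computed over all pairs. The overlap had a median of 482 bp, and at 10 regions more than 1 non-treated peak was overlapped. Separately, 4 of the 431 regions shared their partner with another region.

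Width and CPM went together. Heat-treated peaks had a median width of 746 bp (451 to 6674) and their partners 597 bp (391 to 3007), and the heat-treated peak was the wider at 323 regions. The whole lists differed the same way, with medians of 691 bp with heat and 590 bp without. The share of wider heat-treated peaks over all pairs was not computed. Across the 431 regions, Spearman's rho of heat-treated CPM with width was 0.96, and of the CPM ratio with width 0.76. A wider peak takes in more tags, and the points share their library, so these are descriptions only. Per 1000 bp of peak the median was 1.13 CPM with heat and 1.52 without, and the ratio per 1000 bp was under 1 at 428 regions. The lowest non-treated value per 1000 bp, 1.25, lay above the upper quartile of the heat-treated values, 1.22. A peak was required in both lists, whose lowest CPM differ (0.565 with heat and 0.812 without). The count over all pairs was not computed, so the 428 show no loss with heat. The part of the unlike edges was not tested. The 1384 peaks that also had an IgG peak were wider (median 1325 bp) and higher (median 1.91 CPM), and the 4826 peaks with neither were narrower (636 bp) and lower (0.707 CPM).

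**Figure D2:**
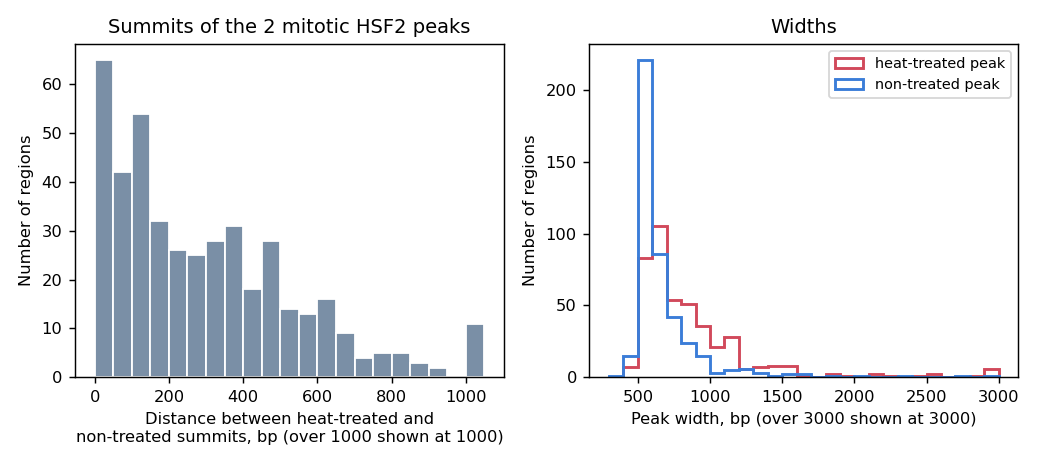
Left, number of regions by distance in bp between the summits of the heat-treated and non-treated mitotic HSF2 peaks (the last bar gathers all longer distances). Right, number of regions by peak width in bp in each list (the last step gathers all wider peaks), with medians of 746 bp with heat and 597 bp without.

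Most shared regions had no counterpart outside the mitotic HSF2 lists, as was the case for most peaks of the whole list. At 307 of 431 (71.2%, 66.8 to 75.3) none of the 8 other lists outside mitotic IgG held a peak, against 75.5% of the whole list. At 324 (75.2%) none of the other 6 HSF lists did, against 79.5%. Any cycling HSF peak was present at 81 regions (18.8%, 15.4 to 22.8), against 15.5% of the whole heat-treated list. A cycling IgG peak was present at 51 (11.8%, 9.12 to 15.2), against 13.6%, and a mitotic HSF1 peak at 61 (14.2%, 11.2 to 17.8), against 14.3%. All 3 shares lie near those of the list as a whole, so they are not a result about these regions. Of the 81 with a cycling HSF peak, 25 also had a cycling IgG peak (5.8% of the regions, against 7.91% of the list) and 56 did not (13%, against 7.61%).

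By factor and treatment, HSF1 in cycling cells had a peak at 37 regions without heat (8.58%, against 8.11% of the list) and at 47 with heat (10.9%, against 9.24%). It was found with heat alone at 36 (8.35%, against 5.39%), without heat alone at 26 (6.03%, against 4.27%) and in both at 11 (2.55%, against 3.85%). HSF2 in cycling cells had a peak at 16 regions without heat (3.71%, against 3.64%) and at 44 with heat (10.2%, 7.69 to 13.4, against 7.61%). It was found with heat alone at 35 (8.12%, against 5.68%), without heat alone at 7 (1.62%, against 1.72%) and in both at 9 (2.09%, against 1.92%). Either factor had a peak at 57 regions in heated cycling cells (13.2%, against 11.5%) and at 47 in non-treated cycling cells (10.9%, against 9.23%). Over both treatments cycling HSF1 had a peak at 73 regions (16.9%, against 13.5%) and cycling HSF2 at 51 (11.8%, against 9.32%). In heated cycling cells 34 regions had peaks of both factors (7.89%, against 5.39%), 13 of HSF1 alone (3.02%, against 3.85%) and 10 of HSF2 alone (2.32%, against 2.21%). The non-treated cycling HSF2 list is short (875 peaks), although its library is deep (28676943 kept tags).

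Mitotic HSF1 had a peak at 23 regions without heat (5.34%, against 9.03%) and at 46 with heat (10.7%, against 11.9%). These libraries are shallow, with 6164898 and 7385467 kept tags. Cycling IgG had a peak at 35 regions without heat (8.12%, against 10.7%) and at 23 with heat (5.34%, against 7.16%).

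The whole list is a mixture, and the shared regions lie between the peaks with neither and the peaks with both. Of the 4826 peaks with neither a non-treated HSF2 nor an IgG peak, 5.74% had a cycling HSF peak and 3.48% a cycling IgG peak. Of the 1384 peaks with both, 52% and 51% did. In all 8 lists the interval of the shared regions lay above that of the peaks with neither and below that of the peaks with both, IgG lists included. The shares for the 1629 peaks with an IgG peak alone were not computed, so the place of the shared regions among all sets is not known. These differences were not tested.

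**Figure D3:**
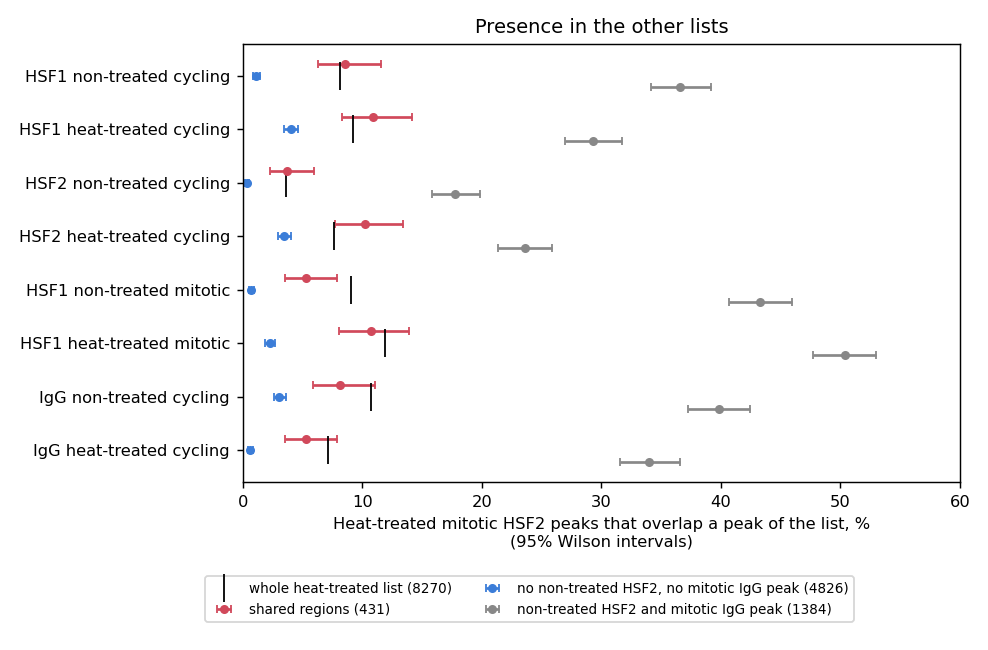
Share in % of heat-treated mitotic HSF2 peaks that overlap a peak of each of 8 other lists, with 95% Wilson intervals, for the 431 shared regions, the 4826 peaks with neither a non-treated nor an IgG peak and the 1384 with both. Black bars mark the whole list of 8270 peaks, which lie within the interval of the shared regions except for non-treated mitotic HSF1 (5.34%, against 9.03%) and, narrowly, heat-treated cycling HSF2 (10.2%, against 7.61%).

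The distance between summits varied by library, without parting the HSF lists from those of IgG. HSF2 of heated cycling cells had its summit within 100 bp of the heat-treated mitotic HSF2 summit at 26 of its 44 regions (median distance 67.5 bp), and non-treated cycling HSF2 at 10 of 16 (63.5 bp). HSF1 of heated mitotic cells did so at 25 of 46 (92 bp), and HSF1 of heated cycling cells at 21 of 47 (111 bp). Non-treated HSF1 did so at 14 of 37 regions in cycling cells (161 bp) and at 8 of 23 in mitotic cells (246 bp). Non-treated cycling IgG did so at 8 of 35 (269 bp), and heat-treated cycling IgG at 9 of 23 (182 bp). The counts are small and were not tested. The same shares over the whole heat-treated list were not computed, so these counts do not set the shared regions apart from it.

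A small group stood out by strong peaks in heated cycling cells. It was defined after its values were seen, as regions whose peak in a heat-treated cycling HSF list has a deposited fold over input of at least 10. There were 18 such regions (4.18%, 2.66 to 6.50), against 1.34% of the whole heat-treated mitotic list (111 of 8270) and 1.28% (1.00 to 1.64) of the peaks with neither. All 18 had peaks of HSF1 and HSF2 in heated cycling cells, as did 110 of the 111, and 13 reached the fold in both. A peak of heat-treated mitotic HSF1 was present at 16 of the 18 (88.9%, against 82% of the 111), a share near that of all strong peaks in the list. Non-treated cycling HSF2 had a peak at 8 (44.4%, 24.6 to 66.3, against 21.6%), non-treated cycling HSF1 at 3 (16.7%, against 11.7%) and non-treated mitotic HSF1 at 2 (11.1%, against 10.8%). Cycling IgG had a peak at 0 of the 18, with an interval of 0 to 17.6%, and at 9 of the 111 (8.11%).

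The levels of the 18 are a description, since a strong heated cycling peak chose them and a peak in both mitotic HSF2 lists was required. The heat-treated mitotic HSF2 CPM was 0.601 to 2.40 (median 0.989) and the non-treated CPM 0.812 to 2.57 (median 1.08), and the counting intervals overlapped at all 18, as at 413 of the 431 regions (95.8%). In heated cycling cells the same antibody gave 1.28 to 9.70 CPM (median 3.57), higher than in heated mitotic cells at 18 of 18, with intervals apart at 15. The choice of these regions largely fixes that direction, so it shows no difference between cell states. Non-treated cycling HSF2, where it had a peak, gave 0.663 to 2.69 (median 1.13). HSF1 gave 2.03 to 12.5 (median 4.12) in heated cycling cells and 1.22 to 9.48 (median 2.71) in heated mitotic cells. The alignment naming in the file headers differs between the mitotic HSF2 lists and the cycling HSF lists, so it cannot be told apart from cell state. The 18 lay on 11 chromosomes, with summits of the 2 mitotic HSF2 peaks within 100 bp at 6 and within 200 bp at 11.

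**Figure D4:**
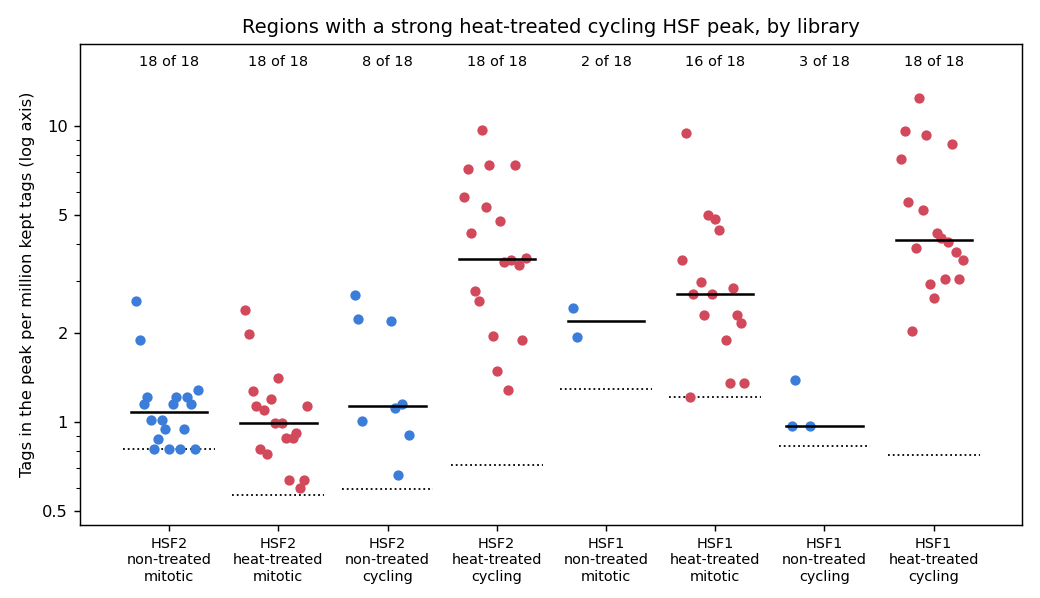
CPM in the peak (log axis) at the 18 regions with a heat-treated cycling HSF peak of fold at least 10, in the 8 HSF libraries. Points are regions, solid lines medians over the regions with a peak, dotted lines the lowest CPM of each list and numbers on top the regions with a peak. Mitotic HSF2 stays between 0.601 and 2.57 CPM with and without heat, and heated cycling HSF2, whose strong peaks helped choose the regions, reaches 9.70.

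The region with the highest mitotic HSF2 fold, chr11:122932389-122933522, had a peak in all 8 HSF lists and in none of IgG. In mitotic cells HSF2 gave 2.40 CPM with heat (68 tags, 1.87 to 3.05) and 2.57 without (38 tags, 1.82 to 3.53), with summits 64 bp apart. In cycling cells HSF2 gave 2.69 without heat (2.12 to 3.36) and 5.75 with heat (4.74 to 6.92). HSF1 gave 0.969 in non-treated and 7.77 in heated cycling cells, and 2.43 and 3.52 in mitotic cells. The intervals of non-treated HSF2 in mitotic and cycling cells overlapped, though the peaks differed in width (810 bp in mitotic and 1134 bp in cycling cells). Heated cycling HSF2 was the highest HSF2 value. The region is among those chosen by a strong heated cycling peak, and that choice favours such a value. Whether HSF2 is alike in the cell states was not tested.

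The region chr2:198364337-198365393 was the only other one with a peak in all 8 HSF lists, and it too had no IgG peak. Mitotic HSF2 gave 1.98 CPM with heat (56 tags) and 1.89 without (28 tags), with overlapping intervals. Cycling HSF2 gave 2.23 without heat (1.72 to 2.85) and 7.19 with heat (6.05 to 8.48). Mitotic HSF1 gave 1.95 without heat (12 tags) and 9.48 with heat (70 tags), and cycling HSF1 gave 1.38 (20 tags) and 9.62 (161 tags). At this place the intervals of HSF1 in heated mitotic and heated cycling cells overlapped, while those of HSF2 did not. Kept tags allow 1 tag per position in the mitotic HSF1 libraries and 2 in the cycling HSF1 and all HSF2 libraries. In the heated HSF2 libraries the filter kept 19476014 of 19476015 tags in cycling cells and 28299989 of 31319536 in mitotic cells. For neither factor can tag filtering be told apart from cell state, so the contrast shows no difference between the factors.

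The region with the highest cycling level among the 18, chr19:5863713-5864641, had 12.5 CPM of HSF1 (209 tags) and 9.70 of HSF2 (189 tags) in heated cycling cells. Its mitotic HSF2 was 1.10 CPM with heat (31 tags, 0.744 to 1.56) and 0.812 without (12 tags, the list's fewest), and its mitotic HSF1 with heat was 2.98 (22 tags). HSF2 in heated cycling cells was 8.86 times its level in heated mitotic cells, the largest such ratio of the 18. In every list with a peak there, the summit lay within 18 bp of that of heat-treated mitotic HSF2. The smallest ratio, 1.05, was at chr14:102553005-102554141, with 1.49 CPM in cycling (0.997 to 2.14) and 1.41 in mitotic cells (1.01 to 1.93) under heat, where the intervals overlap.

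A further 9 regions had peaks in 4 other HSF lists, and 6 of them, chr19:5863713-5864641 among these, had no cycling IgG peak. At chr15:74681525-74682402 mitotic HSF2 was 1.27 CPM with heat (36 tags) and 1.15 without (17 tags), cycling HSF2 1.01 without heat and 4.36 with heat, and cycling HSF1 5.56 with heat. At chr22:41252257-41253069 mitotic HSF2 was 0.989 with heat (28 tags) and 1.15 without (17 tags), with summits 4 bp apart. Cycling HSF2 there was 2.20 without heat and 4.78 with heat, and heated mitotic HSF1 was 4.47. At chr9:33024921-33025446 mitotic HSF2 was 0.601 with heat (17 tags) and 1.15 without (17 tags), the lowest ratio of the 18 (0.522), with overlapping intervals. At chr14:23388045-23388710 it was 0.883 and 0.947, and at chr17:71470338-71470863 0.636 and 0.812. None of these last 5 had a non-treated cycling HSF1 peak. The other 3 of the 9 had a cycling IgG peak. The first was chr22:21762841-21764014, with 1.56 CPM of mitotic HSF2 with heat (44 tags) and 2.23 without (33 tags), a heat-treated cycling IgG peak of 2.13 CPM, and heated cycling HSF2 of 5.24 CPM whose summit lay 2072 bp away. The second was chr21:9866958-9869464, with 4.03 CPM of mitotic HSF2 with heat and 4.46 without, a heat-treated cycling IgG peak of 4.05 CPM, and no heated cycling peak of either factor. Its non-treated cycling HSF2 peak held 20.6 CPM, with its summit 4534 bp away. The third, chr4:9216326-9219173, had a peak in both cycling IgG lists, of 3.66 CPM without heat and 1.78 with heat.

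The other 7 of the 18 lie outside the rule for named regions and are given to complete the group. At chr12:125399608-125400362 mitotic HSF2 was 0.919 CPM with heat (26 tags) and 1.22 without (18 tags), beside 7.39 in heated cycling cells. At chr11:63953008-63953911 it was 1.20 (34 tags) and 1.01 (15 tags), beside 7.39, and at chr19:2677938-2678750 0.777 (22 tags) and 0.879 (13 tags), beside 5.34. Heated cycling HSF2 was 6.15 to 8.05 times the heated mitotic value at these 3, a ratio that their selection on a strong cycling peak favours. At chr1:111505576-111506190 mitotic HSF2 was 0.883 (25 tags) and 1.22 (18 tags), beside 3.49, and this was 1 of the 2 regions of the 18 with no mitotic HSF1 peak. At chr1:11507974-11508929 it was 1.13 (32 tags) and 1.29 (19 tags), beside 3.59. At chr11:64084838-64085444 it was 0.636 (18 tags) and 0.812 (12 tags), beside 1.90, and at chr21:33031423-33032312 0.989 (28 tags) and 0.947 (14 tags), beside 1.95. These last 2 had the smallest cycling levels of the 7. The summits of the 2 mitotic HSF2 peaks lay 597 bp apart at chr12:125399608-125400362, 724 bp at chr19:2677938-2678750 and 507 bp at chr21:33031423-33032312. They lay 117 to 380 bp apart at the others of the 7. The paired mitotic values are thus those of overlapping peaks and not of the same point.

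High mitotic fold did not always come with a cycling HSF peak. Of the 10 regions of highest heat-treated mitotic fold, 6 had a heat-treated cycling HSF peak. Beside those named above, these were chr12:133286705-133287625 (mitotic HSF2 1.13 CPM with heat and 1.22 without, summits 8 bp apart, heated cycling HSF2 2.77) and chr17:74456476-74457254 (0.813 and 1.01, heated cycling HSF2 2.57). The other 4 were as follows. At chr1:2037245-2038720 (fold 7.04) HSF2 was 1.94 CPM with heat (55 tags, 1.46 to 2.53) and 0.812 without (12 tags, 0.419 to 1.42), and no other list held a peak. At chr7:149430045-149431022 the values were 1.41 and 1.35, also with no other peak, but the summits lay 875 bp apart. At chr13:113916934-113917606 and chr13:21724692-21725151 heat-treated cycling IgG had a peak of 1.30 and 1.24 CPM, above heat-treated mitotic HSF2 there (0.954 and 0.671 CPM), with overlapping intervals. The first of these also had a peak of non-treated cycling HSF1 (1.25 CPM) and of heated mitotic HSF1 (2.03 CPM).

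The regions with the most mitotic HSF2 tags were broad and of low fold. All 10 regions of highest heat-treated CPM were wider than 2000 bp, as were 13 regions in all, and the fold of these 13 was 1.86 to 3.68. The highest was chr22:21302901-21309574, 6674 bp wide, with 10.6 CPM with heat (299 tags, fold 2.34) and 6.83 without (101 tags, fold 2.12), and summits 3327 bp apart. On the same chromosome lay chr22:19372501-19376664 with 198 tags with heat and 86 without (5.82 CPM), and its neighbour chr22:19377494-19380980 with 5.72 and 1.83 CPM. On chromosome 1 were chr1:143118916-143122673 with 6.40 and 2.44 CPM, chr1:144528915-144532254 with 5.65 and 1.89, and chr1:142597581-142600483 with 4.81 and 3.52. The other 4 of the 10 were chr21:9866958-9869464, given above, chr4:9216326-9219173, with 3.43 and 0.879 CPM, chr1:16901108-16903391 with 3.29 and 2.03 CPM, and chr1:17091532-17093728 with 3.25 and 2.98. Of this last pair, the first had a peak in both cycling IgG lists (2.64 CPM without heat and 3.57 with heat) and the second in neither. Of the 13, 8 lay on chromosomes 1 and 22 and 9 had a cycling IgG peak, with the highest IgG value, 7.45 CPM, at chr1:142597581-142600483. Of the whole list, 17.1% and 4.39% lay on these chromosomes and 13.6% had a cycling IgG peak. Of the 1384 peaks that also had a mitotic IgG peak, the shares were 10.8%, 19.5% and 51%. The same counts over all broad peaks of the list were not computed, so these are not a trait of the shared regions. The part of IgG signal in these levels was not tested.

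The extremes of the ratio went with width. The 5 regions with the highest ratio of heat-treated to non-treated CPM were 2574 bp wide or more. The highest ratio, 3.90, was at chr4:9216326-9219173, with 3.43 CPM in 2848 bp with heat and 0.879 CPM in 482 bp without. Its ratio per 1000 bp was 0.660. The next were chr22:19377494-19380980 (3.13), chr7:150933300-150935873 (3.10), chr1:144528915-144532254 (2.98) and chr1:143118916-143122673 (2.63), with ratios per 1000 bp of 0.733 to 0.903. At the lowest ratio, 0.254 at chr1:19655490-19656089, HSF2 was 0.636 CPM in 600 bp with heat (18 tags) and 2.50 CPM in 1217 bp without (37 tags). The intervals there did not overlap (0.377 to 1.01 and 1.76 to 3.45), and no other list held a peak. The other 4 of lowest ratio were a pair of neighbours that share 1 non-treated peak, chr21:47633481-47634058 (0.324) and chr21:47634751-47635304 (0.306), with chr3:195349943-195350812 (0.321) and chr18:12883551-12884129 (0.355). At all 5 the non-treated peak was the wider.

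The shared regions were found on all 24 chromosomes, and 185 of 431 lay on chromosomes 1 and 7. Chromosome 1 held 105 (24.4%, 20.5 to 28.6), against 17.1% of the whole heat-treated list and 16.2% of the non-treated list. It held 10.8% of the peaks that overlapped a non-treated HSF2 peak and also an IgG peak. Chromosome 7 held 80 (18.6%, 15.2 to 22.5), against 11.3% and 13.1%, and 14.5% of the peaks that also had an IgG peak. Chromosome 22 held 10 (2.32%, 1.27 to 4.22), against 4.39% and 4.72%, and 19.5% of the peaks that also had an IgG peak. The copy number of these chromosomes in K562 was not measured here, and its part in the shares was not tested. Of the 18 regions with strong cycling peaks, 2 lay on chromosomes 1 or 7.

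Some regions lay close together. The median gap from a region to its nearest neighbour in the set was 415581 bp, 116 regions had a neighbour within 100 kb and 30 within 10 kb. The fullest window of 1 Mb was on chromosome 7 from 155 to 156 Mb, with 9 shared regions among 53 heat-treated and 81 non-treated peaks, followed on the same chromosome by 157 to 158 Mb with 8 and 158 to 159 Mb with 7. The end of chromosome 7 from 150 Mb, a stretch chosen after its values were seen, held 33 regions (7.66%), against 3.22% of the heat-treated list. Of these 33, 3 had a cycling HSF peak.

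**Figure D5:**
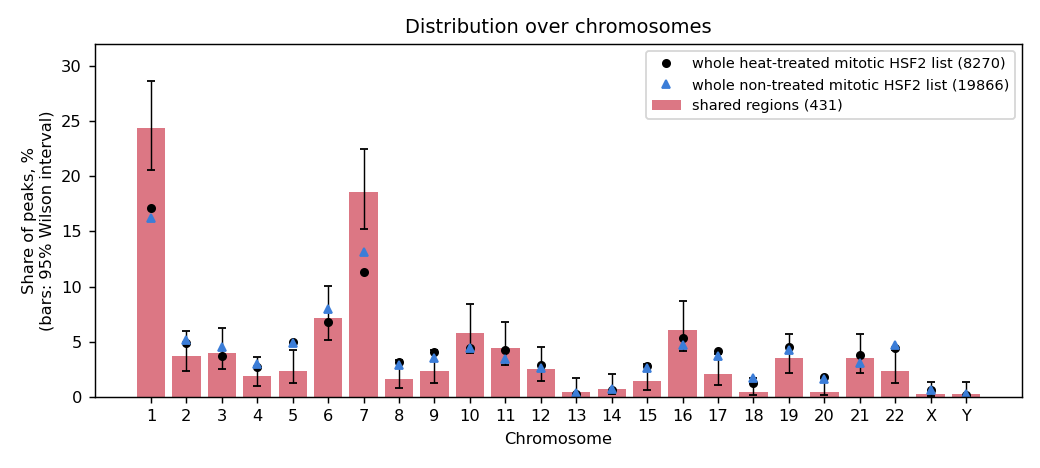
Share in % of the 431 shared regions on each chromosome (bars, with 95% Wilson intervals), beside the whole heat-treated (8270 peaks, dots) and non-treated (19866 peaks, triangles) mitotic HSF2 lists. The bars of chromosomes 1 (24.4%) and 7 (18.6%) stand above their dots (17.1% and 11.3%).

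At the edge of the overlap rule the values on either side were alike. The shortest overlap, 2 bp, was at chr10:73251302-73251996 (0.777 CPM with heat, 0.812 without), followed by 6 bp at chr3:38031861-38032627 (0.813 and 1.01) and 12 bp at chr2:164770619-164771202 (0.601 and 1.22). Just outside, with gaps of 10, 12 and 14 bp, were chr16:89051638-89052238 (0.636 and 0.812), chr5:459513-460100 (0.601 and 0.812) and chr1:160132320-160132947 (0.742 and 0.812). An overlap under 50 bp was found at 13 regions. Of the 4826 heat-treated peaks with neither partner, 74 had a non-treated HSF2 peak within 250 bp.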

How the data were processed

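Peak lists of 12 antibody libraries were used, with groups taken from the labels. Bowtie, MACS 1.4 and the build hg19 are named in the submitters' processing notes. Per the file headers, MACS 1.4.1 called the peaks, at p of 1e-05 or less and with fragments set to 200 bp. The headers of 5 cycling lists name bwa, and those of the 6 mitotic lists do not. The deposited tag counts are whole tags per peak. The deposited score is the negative log10 of MACS's p, multiplied by 10. The deposited fold is a ratio of ChIP tags to the tags expected from input, and is the authors' own value. The deposited FDR is a percent. Kept tags came from the headers and ranged from 2066373 to 28676943.

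CPM are tags in each library's own peak per 1000000 kept tags. The partner of a peak is the one of longest overlap. Regions named are the 10 members of highest heat-treated CPM, the 10 of highest fold, the 5 of highest and of lowest CPM ratio, the 10 in the most other HSF lists, and 3 on either side of the overlap rule; chr14:102553005-102554141 and 7 more of the 18 strong regions were named with their values known. Deposited positions are 1-based. The members, lists and alternatives were chosen with earlier results of these data known. Overlap code was tested on simulated data and compared with bedtools 2.31.1 in 12 lists, with 0 differences. Work was done in Python 3.11.15 with numpy 2.4.6, pandas 2.3.3, scipy 1.17.1 and matplotlib 3.10.9. Heat shock elements and genes were not analysed here.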

Additional observations from a re-analysis of the deposited data

How the results depend on the processing

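The 15 alternatives gave 67 values, of which 31 stayed within the interval of the reported value or, for the number of regions, within 1.5 times it. For the median ratio and the median width that interval runs over regions, so it marks size and does not measure error between libraries. The 431 regions became 248 with 50% reciprocal overlap, 220 with summits within 250 bp, 1815 without the IgG filter, 28 at a score of at least 100 in both HSF2 lists, 4 at a fold of at least 5 in both, 208 with the non-treated list shortened to the length of the heat-treated one, and 222 with heat-treated peaks at or above the lowest non-treated CPM. The last alternative, like CPM per 1000 bp and summits of other lists within 100 bp, was added after the data were seen. These counts differ by construction, since each alternative admits other peaks.

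The median CPM ratio of 0.871 turned above 1 at a score of at least 100 (1.15) and with heat-treated peaks at or above the lowest non-treated CPM (1.13), which selects on the ratio's numerator. It was 0.978 without the IgG filter, 0.784 at an FDR of at most 5%, 0.746 with the shortened list, 0.986 by total tags and 0.747 per 1000 bp. The share with a cycling HSF peak (18.8%) was 44.1% without the IgG filter, 14.7% with no peak in any of the 4 IgG lists, 32.1% at the score minimum, 14.9% at the FDR limit, 75% (of 4 regions) at the fold minimum and 9.98% with summits within 100 bp. The share with a cycling IgG peak (11.8%) was 41.7% without the filter, 17.9% at the score minimum, 0% (of 4) at the fold minimum, 8.17% with the shortened list and 3.71% with near summits. The share with a mitotic HSF1 peak (14.2%) was 47.3% without the filter, 10.3% with no peak in any IgG list, 46.4% at the score minimum, 9.72% at the FDR limit, 75% at the fold minimum and 7.42% with near summits. The median width of 746 bp was 695.5 with near mitotic summits, 1097 without the filter, 1108 at the score minimum, 655 at the FDR limit and 935 at the fold minimum. Apart from what each alternative admits, the cause was not tested.

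No paired analysis was possible because each group holds 1 library and the labels carry no replicate numbers, and for the same reason no library could be left out. At a median of 23 and 13 tags per region, counting error alone limits how small a difference between the libraries could be seen.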
